A study of Mus musculus with 8 samples.

Results

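Mouse spleen B cells that expressed LMP1 were compared directly with mouse spleen B cells activated through CD40, with 2 arrays in each group, which together are 4 of the 8 arrays of the series. Of the 21515 genes measured, 20578 lie on autosomes and were compared here. Genes of the sex chromosomes were left out, since the groups differ in sex. The LMP1 cells came from female (C57BL6XBALBc) F1 mice of the genotype LMP1flSTOP/YFPflSTOP. They were treated with TAT-Cre, a recombinase that crosses the cell membrane and cuts out the stop cassettes ahead of both genes, and were sorted for the YFP reporter after 2 days. The sort therefore selected on YFP and not on LMP1 itself, and LMP1 was not analysed here. The CD40-activated cells came from male B6/J mice (breed C57BL6) and were kept for 2 days with an antibody against CD40, with no TAT-Cre and no sort on a reporter. Both groups were enriched for B cells by removing cells that carry CD43, a step that also removes plasma cells and B1 cells. The remaining 4 arrays serve as reference levels. YFP control cells came from female F1 mice of the same cross (YFPflSTOP/+) and shared TAT-Cre, the sort and the 2 days with the LMP1 cells, and naive control cells of male B6/J mice gave RNA at once after isolation. The labels call the replicates biological, and ages, pooling of mice and the dose of antibody were not given in the sources used here.

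Epstein-Barr virus makes latent membrane protein 1 (LMP1) in B cells that it drives to grow. The protein gathers in the membrane by itself and recruits TRAF adaptors and the NF-kB pathway with no outside signal. CD40 is a receptor of the TNF receptor family on B cells that helper T cells engage through CD40 ligand, and it uses an overlapping set of TRAF adaptors. Engaged CD40 leads B cells to divide, to present antigen on MHC class II and to display costimulatory ligands, and an antibody that clusters CD40 stands in for the T cell. The series was designed for this direct comparison as well as for each activated group against its own control.

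Strain, sex, TAT-Cre, the sort, the array set and the presence of LMP1 or antibody all differ between the groups at once, so that their shares in any difference cannot be told apart. The YFP control levels are therefore printed beside many of the members, since those cells share all of these with LMP1 except LMP1 itself. The strain label was checked on H2-Ea, a class II gene that C57BL/6 mice do not express because its promoter is deleted and that BALB/c mice do. Its level on a log2 scale was 10.42 and 10.55 in LMP1 and 12.65 and 12.67 in YFP control cells, against 5.01 and 5.20 in CD40-activated and 5.29 and 5.13 in naive control cells. Both groups of F1 mice were high and both groups of B6/J mice low, as the labelled strains require. At 5.38 ± 0.16 it is also the highest difference of all autosomal genes, and it follows the strain. Nnt, which carries an internal deletion in C57BL/6J mice, differed by 0.19 ± 0.17 without passing, and whether its probes lie in the deleted part was not checked.

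The 2 LMP1 arrays correlated at r = 0.996 across genes and were over 1 log2 apart at 14 genes, and the 2 CD40-activated arrays correlated at 0.993 with 34 such genes. The YFP control arrays were less alike, at 0.975 with 950 such genes, and the array medians lay between 5.52 and 5.68. Of the B cell markers, Ms4a1 (CD20) was at 11.28 and 11.31 in LMP1 against 12.20 and 12.35 in CD40-activated cells, and Ebf1 was at 10.08 and 10.05 against 10.19 and 10.24. Cd79b and Pax5 differed by 0.32 and 0.22 without passing, and Ms4a1 and Cd79a were lower, at -0.98 and -0.97. Summed over 10 T cell markers the log2 level was 53.63 and 54.65 in LMP1 and 60.76 and 57.67 in CD40-activated cells, where the naive controls stood at 85.35 and 82.98. Neither group was above the other for any of the 13 monocyte and macrophage, 11 neutrophil or 6 erythroid and platelet markers by the test.

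Differences are given as the log2 level in LMP1 cells minus that in CD40-activated cells, with the standard error of a limma model over all 8 arrays and an adjusted p over all 21515 genes. The threshold for passing was an adjusted p under 0.05. Of the 20578 autosomal genes 3062 passed (14.9%), 2000 of them higher (9.72%) and 1062 lower (5.16%) in LMP1 cells. Of these, 1589 (7.72% of all) differed by at least 1 log2, with 1055 higher (5.13%) and 534 lower (2.6%). At 2 log2 or more, 152 were higher and 111 lower. The arrays of the groups did not overlap at any of the 3062, nor at 62.7% of all autosomal genes, and the median difference over all autosomal genes was 0. List counts from all 8 arrays stand against these shares of all autosomal genes, 14.9% in either direction, 9.72% higher and 5.16% lower. Counts without 1 array or under another setting do not, since the share of all genes that passed moved with the setting. The lists were chosen with earlier results of these data known. A list share above that of all genes therefore describes its members and is not a test. With dim genes left out, 3261 of 15599 genes passed. The smallest difference that passed was 0.535 with all 8 arrays fitted. Of 256 called members of the gene lists 141 passed whichever of the 4 arrays was left out, and 77 were lost each time. Leaving out 1 of the 4 arrays lowered the count whichever array it was, and no call changed direction. A lone array widens the standard error, and it also takes a closely matching pair out of the shared spread. The part of each in the lower count was not tested. A call lost in this way therefore need not mean that the difference itself changed. Leaving out YFP control array 1 or 2, whose pair was the least alike, raised the count. For this comparison both runs are the same fit, since a lone array adds nothing to the spread. The same holds for the naive control arrays. Among the genes that passed 65.3% were higher in LMP1, but only 50.6% when these 4 arrays were quantile-normalized again, with 3011 higher and 2938 lower. With these 4 arrays fitted alone, which takes the spread from closely matching arrays only, 6106 genes passed.

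**Figure D1:**
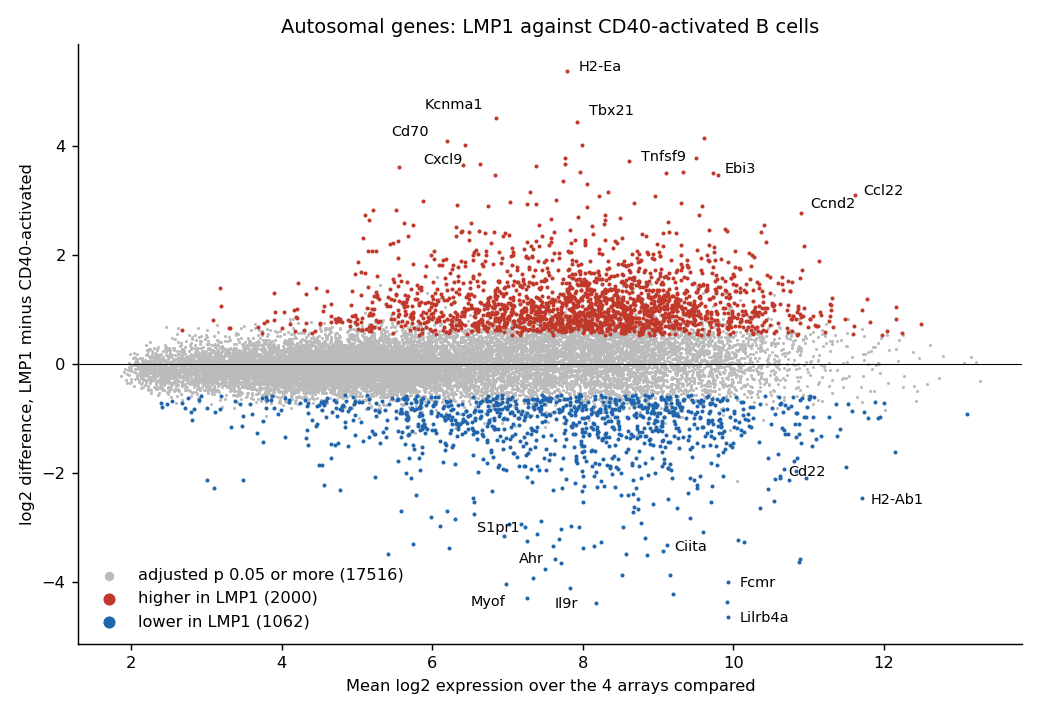
Each point is 1 autosomal gene, with the mean log2 expression over the 4 arrays compared on the horizontal axis and the log2 difference, LMP1 minus CD40-activated, on the vertical axis. Red points are the 2000 genes higher and blue points the 1062 genes lower in LMP1 cells at an adjusted p under 0.05, and grey points did not pass. H2-Ea stands at the top at 5.38 and Lilrb4a at the bottom at -4.63.

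MHC class II molecules display peptides of engulfed proteins to CD4 T cells, and their genes share a promoter module read by the RFX complex, CREB and NF-Y, on which the transactivator CIITA assembles. Of 15 measured genes of class II presentation, among them class II chains, their regulators and genes that process class II, 12 were lower in LMP1 cells and 0 were higher. Among all autosomal genes 5.16% were lower, and the list median was -1.78. H2-Ea, which follows the strain, is not in this list. The promoters of H2-Aa, H2-Eb1 and H2-DMb1 are shown because these genes were lower and their promoters hold the letters of the Y box of this module. The other parts of the module were not searched. Each is the 250 bases before the start of the gene, 5′ to 3′ on its own strand, from RefSeq on GRCm38.p6. Every match to the Y box letters that NF-Y binds (CCAAT, or ATTGG on the other strand) is in capitals. They lie on chromosome 17, at chr17:34287824-34288073 on the minus strand, chr17:34305617-34305866 on the plus strand and chr17:34152941-34153190 on the plus strand.
H2-Aa: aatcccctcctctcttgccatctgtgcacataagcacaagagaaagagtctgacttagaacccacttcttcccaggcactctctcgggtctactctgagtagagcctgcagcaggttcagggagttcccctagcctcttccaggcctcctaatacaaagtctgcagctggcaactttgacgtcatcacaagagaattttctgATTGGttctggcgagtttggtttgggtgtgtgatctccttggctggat
H2-Eb1: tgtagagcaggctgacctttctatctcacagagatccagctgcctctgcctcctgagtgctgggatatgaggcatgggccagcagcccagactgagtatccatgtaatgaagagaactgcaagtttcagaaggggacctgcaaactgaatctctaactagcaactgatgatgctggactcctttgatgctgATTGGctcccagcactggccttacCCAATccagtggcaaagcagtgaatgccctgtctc
H2-DMb1: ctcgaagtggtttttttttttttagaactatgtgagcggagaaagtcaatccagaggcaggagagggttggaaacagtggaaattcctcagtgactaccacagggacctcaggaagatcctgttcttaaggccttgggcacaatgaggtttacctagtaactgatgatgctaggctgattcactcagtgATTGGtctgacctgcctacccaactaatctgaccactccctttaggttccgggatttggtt
ATTGG begins 48 bases before the start in H2-Aa, 61 in H2-DMb1 and 59 in H2-Eb1, which also holds CCAAT at 35. Whether that CCAAT belongs to the module was not tested. CCAAT was searched on both strands in the same window of every autosomal gene with a RefSeq promoter. Of 12 promoters of the class II list 10 held it (83.3%), against 6104 of 15947 in all (38.3%). The holders include Lgmn, Rfx5 and Marchf1, which do not encode class II chains, and H2-DMa, which did not pass. Promoters of genes higher in LMP1 held it in 41.6% and those of genes lower in 40% of cases. A match describes the letters of the reference sequence, which is of C57BL/6J, and does not show that the site is used.

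Ciita itself was at 7.23 and 7.47 in LMP1 cells against 10.74 and 10.80 in CD40-activated cells. The groups lie far apart, the LMP1 arrays are the low ones, and the difference was -3.42 ± 0.19 (adjusted p = 8.14e-06), or 10.7-fold. On the YFP control arrays Ciita was at 10.29 and 9.81, nearer to the CD40-activated level than to LMP1. In the same limma fit YFP control minus CD40-activated was -0.72 ± 0.19 (adjusted p = 0.0367).
Of the classical chains, H2-Ab1 was at 10.35 and 10.60 in LMP1 cells against 12.94 and 12.92 in CD40-activated cells, a difference of -2.46 ± 0.19 (adjusted p = 4.83e-05). H2-Aa was at 9.70 and 10.15 in LMP1 cells against 12 and 12.01 in CD40-activated cells (-2.08 ± 0.20), and H2-Eb1 at 9.67 and 9.77 in LMP1 cells against 11.64 and 11.63 in CD40-activated cells (-1.92 ± 0.17). Their LMP1 arrays were all below their CD40-activated arrays. These chains vary in sequence between the parental strains, and the F1 cells of the YFP control were at 12.34 and 11.91, 11.81 and 11.41 and 11.65 and 11.32 for the same genes. H2-Oa and H2-Ob, the chains of H2-O, which inhibits peptide exchange, were at 7.99 and 7.87 and at 7.46 and 7.49 in LMP1 cells against 10.54 and 10.59 and 9.85 and 9.87 in CD40-activated cells. They were lower (-2.64 ± 0.16 and -2.39 ± 0.19). H2-DMa, a chain of the exchange factor H2-M that H2-O inhibits, did not pass at -0.18 ± 0.15, with levels of 10.44 and 10.45 against 10.63 and 10.61. Its partner chains H2-DMb1 and H2-DMb2 were lower (-1.86 ± 0.36 and -1.07 ± 0.19), yet these genes are closely similar neighbours whose probes may cross-react. H2-DMb1 no longer passed without LMP1 array 2 or without CD40-activated array 2, and H2-DMb2 without CD40-activated array 2.

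Several genes that handle class II after its synthesis were lower as well. Ctss (cathepsin S), which trims the invariant chain, was at 10.02 and 9.81 in LMP1 cells against 11.66 and 11.73 in CD40-activated cells, a difference of -1.78 ± 0.23, but the YFP controls at 10.35 and 9.60 were as low as LMP1 cells. Lgmn (asparagine endopeptidase) was lower (-1.39 ± 0.19) and its YFP control level was 10.21 and 9.88. Marchf1, the ubiquitin ligase that sends class II and CD86 to the lysosome, was lower (-1.47 ± 0.19), at 5.69 and 5.40 in LMP1 cells against 7.01 and 7.02 in CD40-activated cells. Of the RFX subunits, Rfx5 was lower (-0.89 ± 0.22, adjusted p = 0.024), a call lost whichever of the 4 arrays was left out, and Rfxap did not pass at -0.36 ± 0.18. Ifi30, the thiol reductase of the endosome, did not pass at -0.60 ± 0.19 either. Between 9 and 11 of the 15 genes were lower when 1 of the 4 arrays was left out.

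Of 13 measured genes with which B cells costimulate T cells 7 were higher in LMP1 cells and 1 lower, with a median of 1.51, and 6 to 7 were higher without 1 of the 4 arrays. The largest difference was that of Cd70, the ligand of CD27, at 8.17 and 8.33 in LMP1 cells against 4.24 and 4.07 in CD40-activated cells. The LMP1 arrays were high and did not overlap with any other array, since YFP control stood at 4.19 and 4.43 and naive control at 4.59 and 4.51. The difference was 4.10 ± 0.17 (adjusted p = 1.38e-06), or 17.1-fold. Tnfsf9, the 4-1BB ligand, was at 10.45 and 10.51 in LMP1 cells against 6.79 and 6.72 in CD40-activated cells, a difference of 3.73 ± 0.26, with YFP control at 6.48 and 7.29. Tnfsf4, the OX40 ligand, was at 7.53 and 7.32 in LMP1 cells against 5.88 and 5.96 in CD40-activated cells, a difference of 1.51 ± 0.16. For these ligands of the TNF family the CD40-activated arrays lay nearer to the YFP control than to LMP1.

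The CD28 ligands were higher too. Cd80 (B7-1) was at 11.12 and 11.13 in LMP1 cells against 8.75 and 8.54 in CD40-activated cells, a difference of 2.48 ± 0.43 (adjusted p = 0.00392) that missed the threshold without CD40-activated array 2 (adjusted p = 0.0508). Cd86 (B7-2) was at 9.09 and 8.83 in LMP1 cells against 6.70 and 6.76 in CD40-activated cells, a difference of 2.23 ± 0.20. The groups did not overlap, but the YFP controls, which had no antibody, were at 8.17 and 8.63 for Cd86, close to LMP1. The adhesion and costimulatory genes Icam1 and Slamf1 were higher by 2.01 ± 0.22 and 1.96 ± 0.16. Cd40 itself was at 10.65 and 10.58 in LMP1 cells against 10.02 and 9.95 in CD40-activated cells, and its difference of 0.63 ± 0.24 did not pass (95% interval 0.09 to 1.17). Tnfsf8, Tnfsf14, Cd48 and Tnfsf18 lay between -0.14 and 0.33 and did not pass. Icosl, the ligand of ICOS, went the other way, at 9.22 and 9.31 in LMP1 cells against 10.43 and 10.40 in CD40-activated cells, a difference of -1.15 ± 0.21. Its YFP controls at 9.58 and 8.93 were near LMP1, and the call was lost without LMP1 array 1 or without either CD40-activated array.

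Of 21 measured coinhibitory genes 2 were higher and 5 lower, with a median of -0.17. The lowest difference of all autosomal genes was that of Lilrb4a, an inhibitory receptor with ITIM motifs, at 7.85 and 7.39 in LMP1 cells against 12.23 and 12.26 in CD40-activated cells. The CD40-activated arrays were far above all others, since YFP control was at 7.81 and 9.46 and naive control at 7.84 and 6.75, and the difference was -4.63 ± 0.48 (adjusted p = 0.000233). Havcr1 (TIM-1), a receptor for phosphatidylserine, was at 4.70 and 5.07 in LMP1 cells against 7.72 and 7.72 in CD40-activated cells and lower (-2.84 ± 0.22). Pirb, Cd22 and Fcgr2b, which carry ITIM motifs and dampen signals of the B cell receptor, were lower (-2.09 ± 0.17, -2.06 ± 0.18 and -1.45 ± 0.16). Cd22 was at 9.57 and 9.60 in LMP1 cells against 11.61 and 11.67 in CD40-activated cells, and the YFP controls at 12.23 and 11.81 lay with the CD40-activated cells. Tnfrsf14 (HVEM), the ligand of BTLA, was higher by 1.57 ± 0.18, at 9.04 and 9.04 in LMP1 cells against 7.43 and 7.52 in CD40-activated cells. Pvr was higher by 0.91 ± 0.26, a call lost when array medians were subtracted and on leaving out any of the 4 arrays or either naive control. Cd274 (PD-L1) was at 8.42 and 8.07 in LMP1 cells against 8.85 and 8.77 in CD40-activated cells and did not pass at -0.57 ± 0.23 (95% interval -1.08 to -0.06). Pdcd1lg2 (PD-L2) and Btla did not pass at -0.56 ± 0.17 and -0.43 ± 0.16. The remaining 11 genes, from Cd200r1 at -0.32 to Tigit at 0.64, did not pass.

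**Figure D2:**
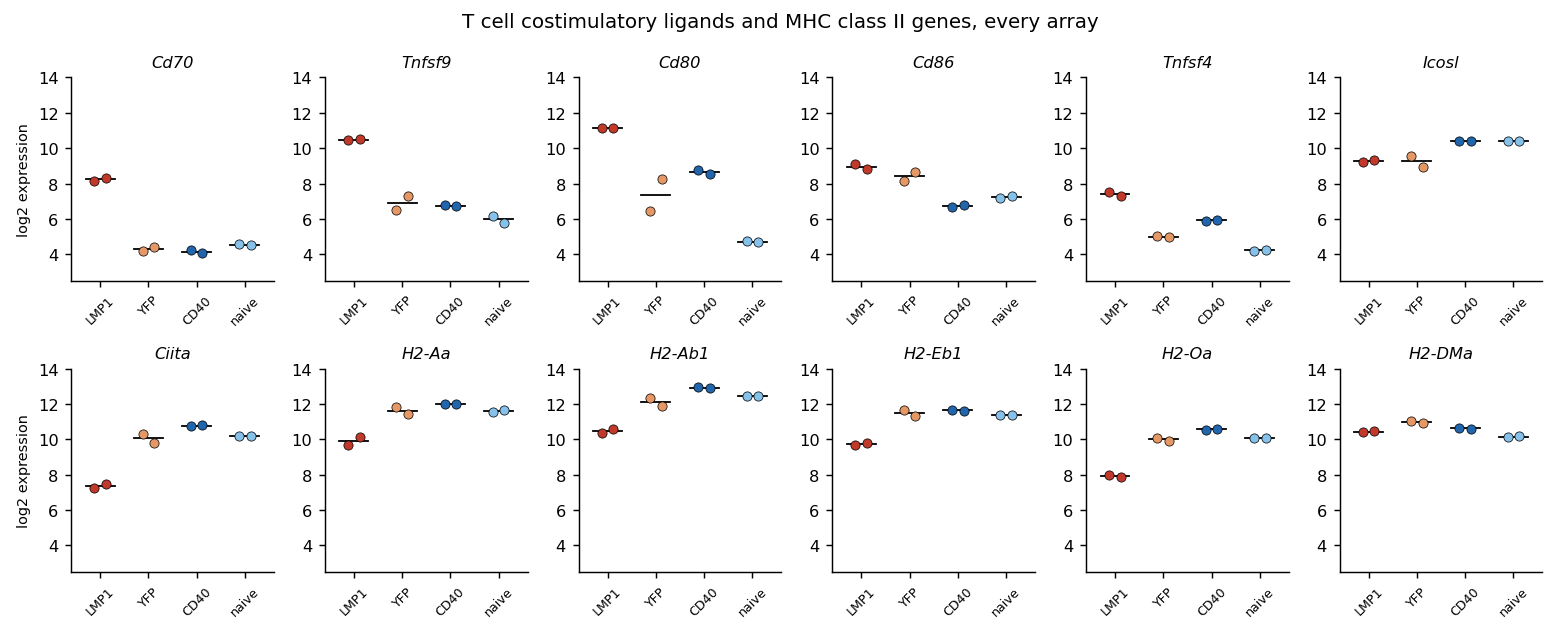
Log2 expression of 6 costimulatory ligands (top) and 6 class II genes (bottom), with 1 point per array, a line at each group's mean and 2 arrays in each of the groups LMP1, YFP control, CD40-activated and naive control. Cd70 and Tnfsf9 are high on the LMP1 arrays alone among these 8 arrays, while Ciita and H2-Oa are low on them and H2-DMa is at 10.44 and 10.45 in LMP1 against 10.63 and 10.61 in CD40-activated cells.

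Secreted factors differed in both directions. Of 32 measured cytokine and chemokine genes 10 were higher and 3 lower, with a median of 0.42. Cxcl9, which attracts T cells through CXCR3, was at 8.51 and 8.44 in LMP1 cells against 4.77 and 4.82 in CD40-activated cells, a difference of 3.68 ± 0.21, and Cxcl10, which binds the same receptor, was at 8.75 and 8.40 in LMP1 cells against 5.23 and 4.97 in CD40-activated cells, a difference of 3.48 ± 0.30. The YFP controls were near the CD40-activated arrays for both, at 4.86 and 5.41 and 4.78 and 5.85. Cxcl11, the third ligand of that receptor, was higher by 1.88 ± 0.19. Ccl22, which attracts T cells through CCR4, was at 13.17 and 13.15 in LMP1 cells against 10.34 and 9.77 in CD40-activated cells and higher by 3.11 ± 0.35. Its YFP controls at 9.67 and 10.88 lay with the CD40-activated arrays, and its naive controls were at 4.91 and 5.29. Ebi3, the shared subunit of IL-27 and IL-35, was at 11.42 and 11.57 in LMP1 cells against 8.10 and 7.85 in CD40-activated cells, a difference of 3.52 ± 0.17 (adjusted p = 3.79e-06). Il6 and Csf2 (GM-CSF) were higher by 2.65 ± 0.36 and 2.84 ± 0.22. Lymphotoxin beta (Ltb), which builds lymphoid tissue, was lower, at 7.21 and 7.25 in LMP1 cells against 10.45 and 10.39 in CD40-activated cells, a difference of -3.19 ± 0.39. Its YFP controls stood apart from each other, at 9.01 and 7.43, and both lay below the CD40-activated arrays. Il18 and Tgfb3 were lower (-1.28 ± 0.17 and -0.83 ± 0.21), and Tgfb3 lost its call without LMP1 array 2 or without either CD40-activated array. Il2, Il4, Il10, Il12a, Il12b, Il15 and Tnf did not pass, from -0.37 for Il4 to 0.42 for Il12a.

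Of 20 measured cytokine receptors 6 were higher and 6 lower. Il2ra (CD25), the high-affinity chain of the IL-2 receptor, was at 11.17 and 11.01 in LMP1 cells against 7.75 and 7.38 in CD40-activated cells, a difference of 3.53 ± 0.41. Its YFP controls were uneven, at 8.52 and 10.15, and both lay above the CD40-activated arrays. Il12rb1, Il5ra and Il15ra were higher by 2.38 ± 0.20, 1.97 ± 0.31 and 1.53 ± 0.20. Il9r was lower, at 5.94 and 6.04 in LMP1 cells against 10.31 and 10.42 in CD40-activated cells, a difference of -4.38 ± 0.16 (adjusted p = 9.08e-07). Here the CD40-activated arrays were the high ones, and YFP control at 5.94 and 6.02 was level with LMP1. Il7r, Il6ra, Il10rb, Ifngr1 and Ifnar1 were lower, from -1.70 for Il7r to -0.98 for Ifnar1, which lost its call without LMP1 array 2 or without CD40-activated array 2.

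Of 18 measured receptors of the TNF receptor family 6 were higher and 1, Cd27, lower (-0.63 ± 0.18), while 3 to 5 were higher and 0 lower without 1 of the 4 arrays. Cd27 also lost its call when array medians were subtracted, with the crossed pairing of replicate numbers and without either naive control. Tnfrsf8 (CD30) was at 9.21 and 9.18 in LMP1 cells against 5.52 and 5.59 in CD40-activated cells, a difference of 3.64 ± 0.20 (adjusted p = 6.79e-06). The LMP1 arrays were above all others, with YFP control at 5.43 and 5.84. The death receptors Tnfrsf10b (TRAIL receptor) and Fas were higher by 2.28 ± 0.18 and 1.08 ± 0.25, where Fas was at 9.37 and 9.34 in LMP1 cells against 8.47 and 8.09 in CD40-activated cells and lost its call whichever of the 4 arrays was left out. Tnfrsf13c, the BAFF receptor, was higher by 0.73 ± 0.16, a call lost without either LMP1 array or without CD40-activated array 2. Ltbr and Tnfrsf11a did not pass at 0.01 and -0.02.

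Of 12 measured receptors that place B cells in lymphoid tissue 6 were lower and 1 higher, with a median of -0.86, and 4 to 5 were lower without 1 of the 4 arrays. S1pr1, through which lymphocytes leave lymphoid organs, was at 5.84 and 5.84 in LMP1 cells against 8.86 and 9.05 in CD40-activated cells, a difference of -3.12 ± 0.25. All other arrays were higher, with YFP control at 10.55 and 9.71 and naive control at 10.32 and 10.10. S1pr3, a receptor for the same lipid that marks marginal zone B cells, was at 6.54 and 6.42 in LMP1 cells against 9.73 and 9.90 in CD40-activated cells, a difference of -3.34 ± 0.20. Its naive controls at 6.31 and 5.90 were level with LMP1, and its YFP controls at 9.67 and 9.98 with the CD40-activated cells. The cannabinoid receptor Cnr2, Ccr6 and Cxcr4 were lower (-2.62 ± 0.25, -1.49 ± 0.17 and -1.15 ± 0.24), and Cxcr4 lost its call without LMP1 array 2 or without either CD40-activated array. Ccr7, which guides cells to the T cell zone, was the gene that was higher, by 1.47 ± 0.20. Cxcr5, the receptor of the follicle, did not pass at 0.34 ± 0.19.

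LMP1 and CD40 signal through shared adaptors and kinases. Of 16 measured genes of CD40 and TRAF signalling 1 was higher and 1 lower, 12.5% of the list where 14.9% of all genes passed, with a median of -0.12. Tab2, an adaptor of the kinase TAK1, was at 9.97 and 9.93 in LMP1 cells against 8.86 and 9.02 in CD40-activated cells and higher by 1.01 ± 0.16. Traf5 was at 6.92 and 6.91 in LMP1 cells against 7.52 and 7.72 in CD40-activated cells and lower (-0.71 ± 0.20), a call lost when array medians were subtracted, with the replicate block, and whichever of the 4 arrays or of the naive controls was left out. Traf1, itself a target of NF-kB, was at 10.11 and 10.07 in LMP1 cells against 9.59 and 9.57 in CD40-activated cells and did not pass at 0.51 ± 0.17. Its YFP controls at 8.10 and 7.93 were below both groups. Traf2 and Traf6 did not pass at -0.10 ± 0.25 and 0.72 ± 0.24, nor did the ubiquitin ligases Birc2 and Birc3 at 0.12 ± 0.24 and -0.40 ± 0.16. The kinases Map3k7, Map3k8 and Ikbkb and the adaptors Tab1, Tank, Tradd, Traf3ip2 and Traf3ip3 lay between -0.87 and 0.49 and did not pass. With the 4 arrays fitted alone, 5 genes of this list were higher and 6 lower, where 6106 of all 20578 autosomal genes passed. After quantile normalization over these arrays 4 were higher and 7 lower, where 5949 of all passed. How this list stood against all genes therefore depended on the setting.

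Of 16 measured NF-kB subunits and feedback genes 3 were higher and 1 lower, and 2 and 0 without 1 of the 4 arrays. Tnfaip3 (A20), the deubiquitinase that restrains the pathway, was at 10.69 and 10.62 in LMP1 cells against 9.14 and 9.09 in CD40-activated cells, a difference of 1.54 ± 0.17. Nfkbib and Nfkbia, which hold NF-kB in the cytoplasm, were higher by 1.14 ± 0.18 and 0.70 ± 0.15, the latter a call lost whichever of the 4 arrays was left out. The called share of this list was 25%, against 14.9% of all autosomal genes. Nfkb2 and Bcl3 did not pass at 0.13 ± 0.27 and -0.06 ± 0.32. Nfkb2 was at 10.51 and 10.53 in LMP1 cells against 10.32 and 10.47 in CD40-activated cells, and both groups lay above the YFP controls at 8.65 and 7.70. Otud7b was lower (-0.90 ± 0.25) and lost this call under 2 other settings and on leaving out any of the 4 arrays or either naive control. Tnip3, a partner of A20 and among the 12 highest differences when 1 gene without a settled name is passed over, was at 8.29 and 8.18 in LMP1 cells against 4.75 and 4.41 in CD40-activated cells, 3.66 ± 0.25 apart.

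Of 26 measured targets of NF-kB 13 were higher and 4 lower, with a median of 0.81, and 11 and 2 without 1 of the 4 arrays. Whether targets and subunits differ from each other was not tested. Beside Ebi3, Ccl22 and Il2ra these were led by Bcl2l1 (BCL-XL), which blocks apoptosis, at 9.76 and 9.76 in LMP1 cells against 6.50 and 6.85 in CD40-activated cells, a difference of 3.09 ± 0.30. Fscn1, an actin bundler, was at 10.17 and 10.14 in LMP1 cells against 7.47 and 6.92 in CD40-activated cells and higher by 2.96 ± 0.21. The YFP controls of both, at 6.07 and 6.06 and 6.64 and 6.27, were low. Irf4 and Cd83 did not pass, at 0.08 ± 0.20 and -0.03 ± 0.17, with Irf4 at 10.30 and 10.22 in LMP1 cells against 10.21 and 10.15 in CD40-activated cells. Marcks and Ltb were lower (-2.08 ± 0.21 and -3.19 ± 0.39). An NF-kB motif, of the form GGGATTTTCC that Il6 carries 44 bases before its start, with the 2 bases after the opening GGG left free, was searched on both strands of the same 250 bases. It lay in 1.66% of all promoters, in 1.86% of those of genes higher and in 1.82% of those of genes lower in LMP1. It was found in 4 of 21 promoters of the targets, 5 of 13 of the subunits and feedback genes and 0 of 8 of the costimulatory ligands. Of the holders in the first 2 lists, Bcl2l1, Il6, Nfkbia and Tnfaip3 were higher and Ltb was lower. Tnfrsf9, Rel, Nfkb2 and Cyld did not pass.

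Genes of survival and death included higher and lower members. Of 23 measured apoptosis regulators 6 were higher and 2 lower, with a median of 0.35, and 3 were higher without 1 of the 4 arrays. Besides Bcl2l1, Fas and Tnfrsf10b, these were Bik, a BH3-only protein, by 1.15 ± 0.18, Bcl2 by 0.76 ± 0.20 and Bak1 by 0.64 ± 0.17. Bcl2l11 (BIM), which starts apoptosis, was at 7.33 and 7.25 in LMP1 cells against 8.52 and 8.32 in CD40-activated cells and lower (-1.13 ± 0.22), a call lost without either LMP1 array or without CD40-activated array 1. Bmf was lower (-0.74 ± 0.21), a call lost when array medians were subtracted, with the replicate block, and whichever of the 4 arrays or of the naive controls was left out. The calls of Bcl2 and Bak1 were lost whichever of the 4 arrays was left out, and that of Bcl2 also with the mean of probe sets. Bad, Hrk, Pmaip1 and Mcl1 did not pass. Of 21 measured targets of p53, 11 were higher and 2 lower, with a median of 0.80, and 5 to 7 were higher without 1 of the 4 arrays. Cdkn1a (p21), the inhibitor of cyclin-dependent kinases, was at 10.79 and 10.79 in LMP1 cells against 7.88 and 7.78 in CD40-activated cells, a difference of 2.96 ± 0.16 (adjusted p = 6.65e-06). The LMP1 arrays matched each other and stood above YFP control at 6.85 and 6.68 and naive control at 6.35 and 6.40. Phlda3, an inhibitor of AKT, was higher by 1.71 ± 0.20, and Mdm2, the ligase that degrades p53, by 0.80 ± 0.17, which lost its call whichever of the 4 arrays was left out. Btg2, an antiproliferative target, was lower (-1.89 ± 0.20).

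**Figure D3:**
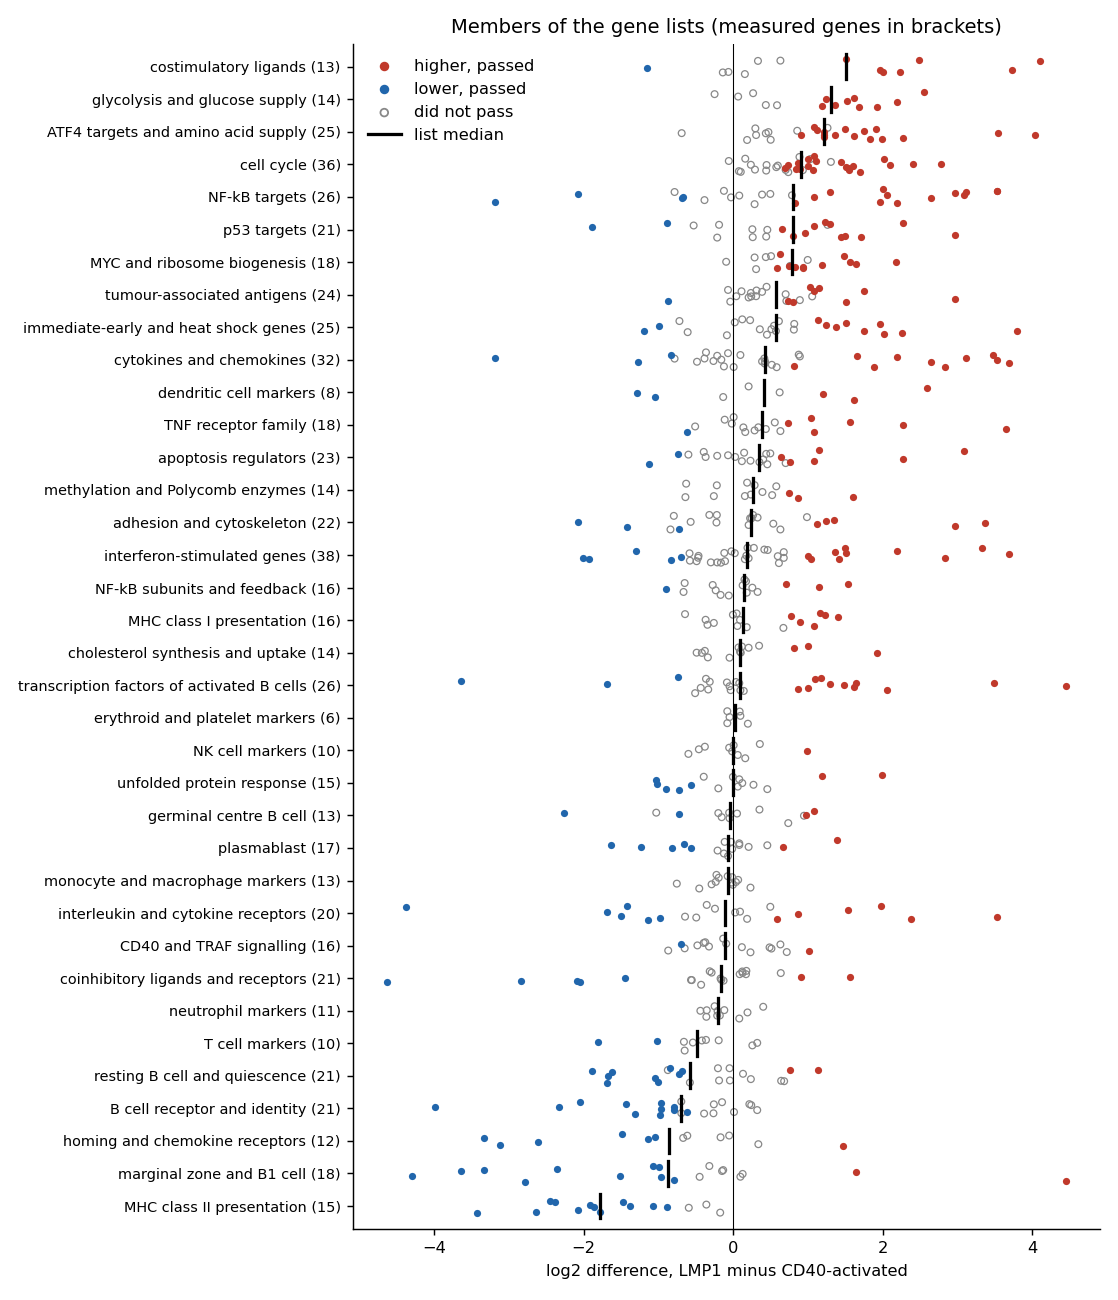
Log2 difference, LMP1 minus CD40-activated, of every measured member of 36 gene lists, ordered by their medians (black bars). Filled points passed at an adjusted p under 0.05 and open points did not. Costimulatory ligands stand at the top with a median of 1.51 and MHC class II presentation at the bottom with -1.78, and the 10 T cell markers lie near the lower end.

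Several transcription factors separated the groups. Of 26 measured factors of activated B cells 11 were higher and 3 lower, with a median of 0.09, and 7 to 9 were higher without 1 of the 4 arrays. Tbx21 (T-bet), the factor of type 1 responses that also marks a class of memory-like B cells, was at 10.11 and 10.20 in LMP1 cells against 5.80 and 5.60 in CD40-activated cells, a difference of 4.46 ± 0.19 (adjusted p = 1.38e-06), or 21.9-fold. All other arrays were lower, with YFP control at 6.59 and 6.90 and naive control at 6.86 and 7.16. Stat4, which acts upstream of T-bet in T cells, was at 11.56 and 11.51 in LMP1 cells against 8.11 and 7.99 in CD40-activated cells, a difference of 3.49 ± 0.17. Its YFP controls at 10.96 and 11.16 were close to LMP1, and its naive controls at 9.88 and 9.67 lay above the CD40-activated arrays. T cells also express both genes. Of the 10 T cell markers, whose summed levels are given above, 2 were lower and 0 higher, with differences from -1.81 to 0.32, and the part of T cells in these values was not tested. Batf, an AP-1 factor, was higher by 2.05 ± 0.25, at 9.12 and 9.36 in LMP1 cells against 7.07 and 7.31 in CD40-activated cells. Batf3 was uneven on the LMP1 arrays, at 6.60 and 5.56, and its call at 1.62 ± 0.37 was lost without LMP1 array 1 or without either CD40-activated array. Zbtb32, Stat5a and Stat3 were higher by 1.64 ± 0.25, 1.30 ± 0.17 and 1.01 ± 0.15. Ahr, the aryl hydrocarbon receptor, was lower, at 6.04 and 5.73 in LMP1 cells against 9.47 and 9.59 in CD40-activated cells, a difference of -3.65 ± 0.24. Its naive controls at 5.83 and 5.30 were level with LMP1, and its YFP controls at 7.89 and 8.46 lay between the groups. Nfatc1 and Tcf4 were lower (-1.69 ± 0.18 and -0.74 ± 0.22), and Tcf4 lost its call when array medians were subtracted and whichever of the 4 arrays was left out.

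Ahr also belongs to the marginal zone and B1 cell list, of whose 18 measured genes 10 were lower and 2 higher, with a median of -0.88. Without 1 of the 4 arrays 5 to 6 were lower. Myof (myoferlin), a membrane repair protein, was at 5.11 and 5.11 in LMP1 cells against 9.34 and 9.46 in CD40-activated cells, a difference of -4.29 ± 0.17, with YFP control between the groups at 7.41 and 7.75. Bhlhe41, a factor that maintains B1 cells, and Fcrl5 were lower (-2.79 ± 0.24 and -2.36 ± 0.40). Tbx21 and Zbtb32 were the higher members. Notch2, which directs B cells to the marginal zone, and Cd1d1 did not pass at 0.10 ± 0.31 and -0.15 ± 0.27. Cd36 and Cr2 (CD21) were lower (-1.52 ± 0.34 and -0.96 ± 0.20) but lost their calls whichever of the 4 arrays was left out. The RNA came from whole populations, where fewer cells of a type and less RNA per cell cannot be told apart.

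Of 38 measured interferon-inducible genes 10 were higher and 5 lower, with a median of 0.18, and 2 to 3 were lower without 1 of the 4 arrays. The higher genes included guanylate-binding proteins and immunity-related GTPases, which attack vacuoles of intracellular microbes. Gbp7 was at 9.69 and 9.51 in LMP1 cells against 6.39 and 5.44 in CD40-activated cells, a difference of 3.69 ± 0.33, and Igtp was at 9.75 and 9.69 in LMP1 cells against 6.52 and 6.28 in CD40-activated cells, a difference of 3.32 ± 0.18. Their YFP controls at 8.27 and 8.44 and 8.99 and 9.22 were nearer to LMP1 than to CD40-activated cells. Gbp5 was higher by 2.19 ± 0.19, at 8.79 and 8.50 in LMP1 cells against 6.39 and 6.53 in CD40-activated cells, with YFP control at 8.0 and 7.66. Iigp1 was higher by 2.83 ± 0.22, with YFP control at 5.15 and 5.38. Gbp2b, in no list but among the 12 highest differences, was at 10.11 and 9.88 in LMP1 cells against 6.20 and 5.75 in CD40-activated cells, 4.02 ± 0.35 apart, and its YFP controls at 6.35 and 6.64 lay with the CD40-activated arrays. Irf1, the factor that turns on many of these genes, was higher by 1.5 ± 0.27. Ifit3, Isg15 and Rsad2, genes of the antiviral response to type I interferon, did not pass at -0.03 ± 0.18, 0.19 ± 0.21 and -0.17 ± 0.36. Mndal, Ifi209 and Ifi214, of the Ifi200 cluster, were lower (-2.01 ± 0.17, -1.93 ± 0.17 and -1.30 ± 0.24), and Ifi214 lost its call without LMP1 array 2 or without CD40-activated array 2. Their YFP controls were at 9.35 and 9.10, 10.91 and 10.84 and 10.34 and 9.85.

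Class I presentation, which shows peptides of the cell's own proteins to CD8 T cells, had 6 of 16 measured genes higher and 0 lower, with a median of 0.14. Without 1 of the 4 arrays 2 to 3 were higher, and 4 were lower after the 4 arrays were quantile-normalized again. The peptide pump subunit Tap2 was at 8.72 and 8.79 in LMP1 cells against 7.28 and 7.44 in CD40-activated cells, a difference of 1.40 ± 0.18. The immunoproteasome subunits Psmb9 and Psmb10 were higher by 1.22 ± 0.24 and 1.16 ± 0.16, and Psmb9 lost its call whichever of the 4 arrays was left out. B2m, the light chain of class I, was at 13.30 and 13.19 in LMP1 cells against 13.23 and 13.17 in CD40-activated cells and did not pass at 0.05 ± 0.17. The transactivator Nlrc5, the counterpart of Ciita for class I, did not pass at -0.35 ± 0.21.

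Genes of the B cell receptor and of B cell identity were lower or did not pass. Of 21 measured, 11 were lower and 0 higher, with a median of -0.70, and 6 to 7 were lower without 1 of the 4 arrays. Fcmr, the receptor for the Fc part of IgM, was at 7.93 and 7.95 in LMP1 cells against 12 and 11.85 in CD40-activated cells, a difference of -3.99 ± 0.16 (adjusted p = 1.38e-06). The LMP1 arrays were alone in being low, with YFP control at 12.25 and 12.21 and naive control at 11.28 and 11.43. Fcrla, an intracellular Fc receptor homologue, was at 6.71 and 6.93 in LMP1 cells against 9.10 and 9.20 in CD40-activated cells and lower (-2.33 ± 0.18). The adaptor Bank1 and the kinase Blk were lower (-1.44 ± 0.16 and -1.32 ± 0.28), and Blk lost its call whichever of the 4 arrays was left out. Fcer2a (CD23) was at 11.92 and 11.95 in LMP1 cells against 11.92 and 11.93 in CD40-activated cells and did not pass at 0.01 ± 0.16, while its YFP controls at 10.53 and 10.34 were lower than both. Of the factors that define the lineage, Ebf1, Pax5, Pou2af1 and Spib did not pass, between -0.39 for Pou2af1 and 0.22 for Pax5.

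Of 21 measured genes of resting B cells 9 were lower and 2 higher, with a median of -0.58, and 3 were lower without 1 of the 4 arrays. Btg2 and Il7r led, with Ikzf3 (Aiolos) at 9.09 and 9.03 in LMP1 cells against 10.67 and 10.68 in CD40-activated cells and lower (-1.62 ± 0.27). Rgs2 was lower (-1.68 ± 0.39) but lost its call whichever of the 4 arrays was left out. Foxo1 and Klf2, which keep lymphocytes quiescent, did not pass at -0.21 ± 0.20 and -0.88 ± 0.38.
Genes of the later fates of an activated B cell differed in both directions. Of 13 germinal centre genes 2 were higher and 2 lower (30.8% called, against 14.9% of all autosomal genes), or 0 to 1 and 1 without 1 of the 4 arrays, with Gcnt1, a glycosyltransferase, at 6.59 and 6.60 in LMP1 cells against 8.79 and 8.92 in CD40-activated cells and lower (-2.26 ± 0.19). Bcl6, the factor of the germinal centre, was lower (-0.72 ± 0.19), a call lost when array medians were subtracted and whichever of the 4 arrays was left out. Its YFP controls at 9.40 and 9.07 were above both groups, while those of Gcnt1 at 7.66 and 7.20 lay between the groups. Of 17 plasmablast genes 2 were higher and 5 lower (41.2% called), or 0 to 1 and 1 to 2 without 1 of the 4 arrays. Ighm, the IgM heavy chain, was at 9.70 and 9.85 in LMP1 cells against 11.42 and 11.40 in CD40-activated cells and lower (-1.64 ± 0.21). Prdm1 (BLIMP1), which drives plasma cell formation, was lower (-0.82 ± 0.20) and lost its call without LMP1 array 1 or without either CD40-activated array. Sdc1 (CD138) did not pass at -0.02 ± 0.25.

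Growth and division separated the groups in one direction. Of 36 measured cell cycle genes 20 were higher in LMP1 and 0 lower, against 9.72% higher among all genes, with a median of 0.91. Without 1 of the 4 arrays 9 to 10 were higher. Ccnd2 (cyclin D2), which takes B cells into the cycle, was at 12.32 and 12.25 in LMP1 cells against 9.53 and 9.49 in CD40-activated cells, a difference of 2.78 ± 0.20. The YFP controls at 9.54 and 9.28 were level with the CD40-activated arrays. Of the mitotic kinases, Cdk1 was at 10.42 and 10.46 in LMP1 cells against 7.96 and 8.11 in CD40-activated cells and higher by 2.41 ± 0.32, and Aurkb and Aurka were higher by 2.10 ± 0.23 and 1.51 ± 0.19. Bub1 was higher by 2.02 ± 0.43 and lost its call whichever of the 4 arrays was left out. Cdk2 and Ccnd1 did not pass at 0.08 ± 0.23 and -0.06 ± 0.19, nor did Mki67 and Top2a at 0.16 ± 0.35 and 0.45 ± 0.46. The higher Cdkn1a stood beside these genes on the same arrays.

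Of 18 measured genes of MYC and ribosome biogenesis 11 were higher and 0 lower, with a median of 0.79, and 4 to 5 were higher without 1 of the 4 arrays. Myc was at 10.67 and 10.79 in LMP1 cells against 9.32 and 9.19 in CD40-activated cells, a difference of 1.48 ± 0.19, where YFP control and naive control were at 9.13 and 9.02 and 9.40 and 8.95. Srm (spermidine synthase) was at 11.93 and 12.12 in LMP1 cells against 10.04 and 9.67 in CD40-activated cells and higher by 2.17 ± 0.24, and Polr1b, a subunit of RNA polymerase I, was higher by 1.56 ± 0.19. Ncl and Nop58 did not pass at 0.29 ± 0.20 and -0.10 ± 0.22. Of 14 genes of glycolysis and glucose supply 9 were higher and 0 lower, with a median of 1.30, and 9 were higher as well whichever of the 4 arrays was left out. Tpi1 (triosephosphate isomerase) was at 11.76 and 11.61 in LMP1 cells against 9.16 and 9.11 in CD40-activated cells, a difference of 2.55 ± 0.24. The glucose transporter Slc2a1 (GLUT1) was at 10.53 and 10.32 in LMP1 cells against 8.74 and 8.74 in CD40-activated cells and higher by 1.69 ± 0.16, and the lactate transporter Slc16a1 by 2.19 ± 0.33. Pfkp and Slc2a3 did not pass at 0.07 ± 0.16 and -0.25 ± 0.16.

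Targets of ATF4, the factor that answers a shortage of amino acids, and genes of amino acid supply were higher for 16 of 25 measured members and lower for 0, with a median of 1.22. Without 1 of the 4 arrays 8 to 11 were higher. Cth (cystathionine gamma-lyase), which makes cysteine, was at 8.59 and 8.33 in LMP1 cells against 3.92 and 4.93 in CD40-activated cells, a difference of 4.04 ± 0.29. The CD40-activated arrays were uneven but both far below LMP1, and YFP control was at 5.56 and 5.18. Asns (asparagine synthetase) was at 9.73 and 9.74 in LMP1 cells against 6.46 and 5.93 in CD40-activated cells, a difference of 3.54 ± 0.20 (adjusted p = 7.67e-06). Its YFP and naive controls, at 6.40 and 6.32 and 6.17 and 6.32, were level with the CD40-activated arrays. Chac1, which degrades glutathione, and the transporter Slc1a4 were higher by 2.28 ± 0.20 and 2.00 ± 0.18. Enzymes that make serine and feed one-carbon units, Psat1, Phgdh, Shmt2 and Mthfd2, were higher by 1.83 ± 0.18, 0.91 ± 0.22, 1.91 ± 0.36 and 1.22 ± 0.31. Of these, Phgdh and Mthfd2 lost their calls whichever of the 4 arrays was left out, and Shmt2 without CD40-activated array 2. Atf4 RNA did not pass at 0.19 ± 0.22, nor did Ddit3 (CHOP) at -0.69 ± 0.33.

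Of 15 genes of the unfolded protein response 2 were higher and 5 lower, with a median of -0.01. Without 1 of the 4 arrays 2 to 3 were lower. Sdf2l1 and Ern1 (IRE1) were higher by 2.00 ± 0.22 and 1.19 ± 0.17, and Atf6 and Pdia6 were lower (-1.03 ± 0.16 and -1.03 ± 0.17). Xbp1, the factor that IRE1 activates by splicing, was lower (-0.57 ± 0.17), a call lost when array medians were subtracted, with the replicate block and its crossed form, and whichever of the 4 arrays or of the naive controls was left out. Of 14 genes of cholesterol synthesis and uptake 3 were higher and 0 lower, and 1 without 1 of the 4 arrays. Fdps was at 10.77 and 10.66 in LMP1 cells against 8.99 and 8.61 in CD40-activated cells and higher by 1.92 ± 0.21, whereas Hmgcs1 and Cyp51 did not pass at -0.42 ± 0.16 and -0.49 ± 0.25. The called share of the cholesterol list was 21.4%, against 14.9% of all autosomal genes.

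Immediate-early and heat shock genes were higher for 9 of 25 and lower for 2, with a median of 0.57, and 4 to 6 were higher without 1 of the 4 arrays. Jun was at 9.82 and 9.49 in LMP1 cells against 5.42 and 6.30 in CD40-activated cells, a difference of 3.80 ± 0.73 (adjusted p = 0.00637). Its YFP controls were far apart, at 8.78 and 5.95, and the call was lost without LMP1 array 1 (adjusted p = 0.0544) or CD40-activated array 1 (adjusted p = 0.0744). Junb, Nr4a2 and Ier3 were higher by 1.96 ± 0.20, 2.26 ± 0.26 and 2.02 ± 0.23. Fos and Egr1 did not pass at 0.55 ± 0.35 and -0.61 ± 0.26, and Egr3 was lower (-1.20 ± 0.29) but lost its call whichever of the 4 arrays was left out. The LMP1 cells passed through a cell sorter after culture and the CD40-activated cells did not, and the part of the sort in these values was not tested.

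Of 22 adhesion and cytoskeleton genes 5 were higher and 3 lower, and 8 and 6 without YFP control array 1 or without YFP control array 2. Tspan33, a tetraspanin of activated B cells, was at 9.46 and 9.38 in LMP1 cells against 6.04 and 6.06 in CD40-activated cells, a difference of 3.37 ± 0.34. The YFP controls were low, at 5.69 and 5.57, and the naive controls uneven, at 8.70 and 7.37. Cd44 was higher by 1.34 ± 0.23, and Marcks and Myo1e were lower (-2.08 ± 0.21 and -1.43 ± 0.21). Of 24 genes known as tumour-associated antigens 8 were higher and 1 lower, with a median of 0.57, and 4 were higher without 1 of the 4 arrays. Beside Fscn1 and Aurka these were Epha2, a receptor tyrosine kinase, at 7.24 and 7.03 in LMP1 cells against 5.45 and 5.32 in CD40-activated cells and higher by 1.75 ± 0.16, and Cdc45 by 1.15 ± 0.16. Epcam was lower (-0.87 ± 0.24) but lost its call whichever of the 4 arrays or of the naive controls was left out, and Sart3, Wt1 and Tert did not pass at 0.04 ± 0.27, 0.24 ± 0.18 and 0.21 ± 0.20. Of 14 genes of DNA methylation and the Polycomb complexes 3 were higher and 0 lower, and 1 without 1 of the 4 arrays. Ezh2, the histone methyltransferase, was at 11.33 and 11.24 in LMP1 cells against 9.75 and 9.62 in CD40-activated cells and higher by 1.6 ± 0.23. Suz12, its partner, and Tet2 were higher by 0.87 ± 0.19 and 0.74 ± 0.19 with all arrays and lost their calls whichever of the 4 was left out. Dnmt3b and Cbx7 did not pass. Called members made up 21.4% of this list, against 14.9% of all autosomal genes.

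Beyond the lists, the 12 highest differences held Kcnma1, the large-conductance potassium channel, at 10.21 and 8.02 in LMP1 cells against 4.44 and 4.73 in CD40-activated cells. The LMP1 arrays were uneven, but both above the CD40-activated arrays, and the difference was 4.53 ± 0.63 (adjusted p = 0.00115). Terc, the RNA template of telomerase, was at 11.69 and 11.68 in LMP1 cells against 7.48 and 7.59 in CD40-activated cells, a difference of 4.15 ± 0.36, and its YFP controls at 11.61 and 10.17 were near LMP1. Of the 12 lowest, when 7 small RNAs and 1 gene model are passed over, Irs2, an adaptor of the insulin and IL-4 receptors, was at 5.74 and 5.94 in LMP1 cells against 9.41 and 9.41 in CD40-activated cells, a difference of -3.57 ± 0.19. Plaur, the urokinase receptor, was at 5.71 and 5.53 in LMP1 cells against 9.37 and 9.36 in CD40-activated cells, a difference of -3.75 ± 0.21. Their YFP controls, at 8.80 and 8.45 and 9.23 and 8.72, were nearer to the CD40-activated arrays. Lynx1, Nxpe2, Ms4a14 and Edaradd were lower (-3.87 ± 0.15, -4.03 ± 0.31, -3.49 ± 0.33 and -3.47 ± 0.16). Of these, Lynx1 was at 7.21 and 7.24 in LMP1 cells against 11.12 and 11.07 in CD40-activated cells, with YFP control at 8.36 and 8.32 and naive control at 8.69 and 8.67. The YFP controls of Edaradd, at 8.14 and 8.06, lay between the groups.

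**Figure D4:**
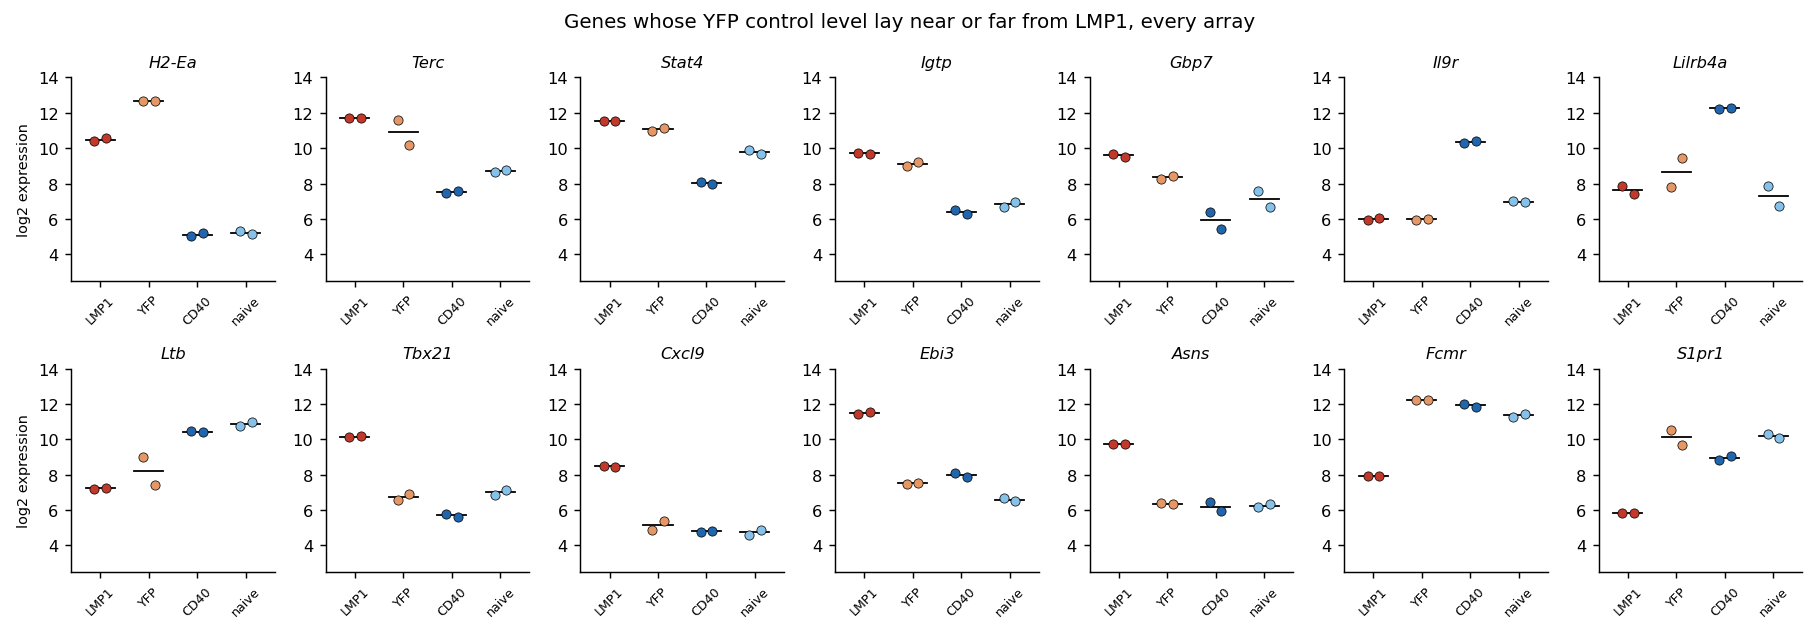
Log2 expression of 14 genes on all 8 arrays, with 1 point per array and a line at each group's mean. They were chosen after their values were seen to show both patterns of the YFP control. The YFP mean lies nearer to that of LMP1 for H2-Ea, Terc, Stat4, Igtp, Gbp7, Il9r, Lilrb4a and Ltb, and nearer to that of CD40-activated cells for Tbx21, Cxcl9, Ebi3, Asns, Fcmr and S1pr1.

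Of 10 T cell markers 2 were lower and 0 higher, Cd2 at -1.81 ± 0.20 and Cd28 at -1.02 ± 0.19 (lost without LMP1 array 2 or without either CD40-activated array), and 5 were lower with the 4 arrays fitted alone. Cd4 and Cd8a did not pass, at 5.25 and 5.32 in LMP1 cells against 5.70 and 5.26 in CD40-activated cells for Cd4. With all 8 arrays the called share was 20% of the T cell and 10% of the NK cell markers, against 14.9% of all autosomal genes. Of 10 NK cell markers 1, Gzmb, was higher (0.99 ± 0.28), and it lost its call on leaving out any of the 4 arrays or either naive control. Ncr1 and Nkg7 differed by -0.06 and 0.01 and did not pass. Of 8 dendritic cell markers 3 were higher, Flt3 by 2.59 ± 0.22, Zbtb46 by 1.21 ± 0.18 and Batf3, and 2 were lower, Siglech at -1.29 ± 0.17 and Ccr9 at -1.05 ± 0.20, which lost its call without LMP1 array 1 or without CD40-activated array 2. Flt3 was at 9.68 and 9.46 in LMP1 cells against 6.89 and 7.08 in CD40-activated cells, with YFP control at 6.33 and 6.82. Itgax (CD11c), Xcr1 and Cd209a did not pass at -0.14 ± 0.19, 0.62 ± 0.23 and 0.21 ± 0.35. Summed over these 8 markers the log2 level was 48.86 and 47.67 in LMP1 and 45.43 and 43.57 in CD40-activated cells, and the part of other cells in the differences of shared genes was not tested.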

How the data were processed

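RNA of 8 spleen B cell samples was measured on Affymetrix whole-transcript arrays. The deposited values are log2 expression per probe set, made by the authors with RMA and the package oligo, as the submitters' processing notes name them (versions and settings are not given in the sources used here). LMP1 and YFP control arrays were re-analysed from an earlier series, per the labels. Of 25349 probe sets 22225 had 1 gene symbol in the platform's table, 616 several and 2508 none, and only the first kind was used. For 640 genes with several probe sets the brightest was taken, and sets of one gene can disagree, which leaves 21515 genes. A gene table of GRCm38.p6 matched 21480 of them and placed 20578 on autosomes, 877 on X and 12 on Y.

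The 8 arrays were fitted together, with a mean for each of 4 groups, using lmFit and eBayes of limma 3.58.1 (R 4.3.3), with 4 residual and 5.75 prior degrees of freedom, so that the 4 groups share 1 estimate of the spread. P-values are two-sided, with Benjamini-Hochberg adjustment across the 21515 genes, errors beside differences are standard errors, and n is 2 arrays per group. On simulated data of 21515 genes the fit found 0 of 67 genes changed by 0.5 log2, 19 of 67 changed by 1 log2 and 63 of 66 changed by 2 log2, with 5 of 21315 unchanged genes called. Far fewer genes were changed there than passed in the data, which makes the adjusted threshold stricter. The power of the comparison itself was not measured. Gene lists (37 lists, 678 genes, of which 603 were measured on autosomes and 75 were not analysed here) are described by counts and medians. The members and lists were chosen with earlier results of these data known. Named genes are the 12 highest and 12 lowest differences that passed without overlap, passing over gene models and small RNAs (1 at the high end, 8 at the low end, of which 7 are small RNAs), up to 4 of the largest called and 2 of the smallest differences per list, and every member of the CD40 and TRAF, costimulatory, coinhibitory, class II and strain-dependent lists. Other list members named in the text were chosen after their values were seen. Settings tried beside this were a trend with robust fitting in eBayes, a fit of only the 4 arrays, dim genes left out, array medians subtracted, quantile normalization, the mean of probe sets, the replicate number as a block, and each array left out. Precision is limited by there being 2 arrays per group.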

Additional observations from a re-analysis of the deposited data

How the results depend on the processing

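The fit of all 8 arrays gave 3062 genes, 2000 higher and 1062 lower in LMP1. With only the 4 arrays compared in the model 6106 genes passed, 3683 higher and 2423 lower, and all 3062 were among them. With quantile normalization over the 4 arrays 5949 passed, 3011 higher and 2938 lower, and 3041 of the 3062 were among them. Leaving out 1 array at a time gave 1234 to 4547 genes, 782 to 2858 higher and 408 to 1689 lower, where a lone array is assumed to vary like the other groups. The other settings with all arrays (trend and robust fitting, dim genes left out, array medians subtracted, mean of probe sets) gave 2831 to 3261 genes, and the mean of probe sets turned the direction of 3. Same-numbered arrays of LMP1 and CD40-activated deviated with a correlation of -0.102, so the numbers were not taken to pair them. With the replicate block 2918 genes passed, 1926 higher and 992 lower, and with the crossed pairing, added after seeing the data, 3124, of them 2012 higher and 1112 lower. Of 136 named genes that passed, 132 kept call and direction under every setting listed above that kept all arrays, the crossed pairing not counted (not Bcl6, Otud7b, Traf5 and Pvr) and 108 under these and every left-out array, and none was reversed. The causes of these shifts were not tested. In simulated data of this size 19 of 67 changes of 1 log2 passed. Far fewer genes were changed there than passed here, so this does not give the power of the comparison.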

Other observations

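Small nucleolar RNAs, a class singled out after its values were seen, stood apart from protein-coding genes. Of 66 measured snoRNA genes 37 were lower in LMP1 than in CD40-activated cells and 4 were higher (62.1% passed), with a median difference of -1.13, where 15.8% of 17873 protein-coding genes passed with a median of 0.02. Snord110, for instance, was at 7.74 and 7.73 in LMP1, 12.15 and 12.04 in CD40-activated, 7.62 and 5.87 in YFP control and 12.79 and 12.69 in naive control cells. The median snoRNA level was 8.26 and 8.14 in LMP1 and 8.31 and 7.32 in YFP control cells, against 9.45 and 9.50 in CD40-activated and 10.93 and 10.92 in naive control cells. This median was lower on the 4 LMP1 and YFP control arrays than on the 4 others, and lower in CD40-activated than in naive control cells. The array set, strain, sex, TAT-Cre and the sort divide the arrays in the same way and cannot be told apart here. Of 384 miRNA genes 40 were lower and 8 higher (12.5% passed), with a median of -0.13. Of 1861 long non-coding RNA genes 57 were lower and 41 higher (5.27% passed). Both shares are below the 14.9% of all autosomal genes.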
